A study of Rattus norvegicus with 12 samples.

Results

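The 9 genes described here handle urea and glutamine in the liver, and they were followed along the lobule and between rat strains out of 32883 genes in the count tables. They were listed by name for their roles, with earlier results of these data known. Cps1, Nags and Otc encode the mitochondrial steps of the urea cycle, in which carbamoyl phosphate synthetase 1 (Cps1) fixes ammonia, N-acetylglutamate synthase (Nags) makes the activator that Cps1 requires, and ornithine transcarbamylase (Otc) joins carbamoyl phosphate to ornithine. Ass1, Asl and Arg1 encode the cytosolic steps, argininosuccinate synthase, argininosuccinate lyase and arginase, the last of which releases urea. Gls2 encodes the liver-type glutaminase, Glul encodes glutamine synthetase, and Oat encodes ornithine aminotransferase, which feeds ornithine carbon into glutamate. In the liver lobule, blood flows from the portal tract to the central vein. The urea cycle and Gls2 are known as functions of periportal and midlobular hepatocytes, and Glul is known for a thin sleeve of hepatocytes around the central vein that scavenges ammonia left over from urea synthesis.

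The livers came from healthy male rats of the Dark Agouti (DA), Lewis (LEW) and Wistar strains, with no genetic modification and no treatment. Hepatocytes were measured in snRNA-seq of frozen tissue (nuclei, 10x 3′ version 3, 2 DA and 2 LEW rats), in scRNA-seq of total liver homogenate (TLH, version 2, 2 DA and 2 LEW rats), in immune-enriched scRNA-seq with an additional wash (version 3, 1 DA and 1 LEW library), and in Visium spots of 2 Wistar sections, each spot a small area that holds several cells. The TLH labels give an age of 8 to 10 weeks, and the names of the TLH files hold 10 weeks for DA and 13 weeks for LEW. The study's methods describe older rats that were age matched. The sources thus differ on age, and where the file names hold, age and strain cannot be told apart in TLH cells. Each table held counts of unique molecular identifiers (UMIs). Totals were 8039397 to 15186970 UMIs per nuclei library, 61441846 to 92484173 per TLH library, 48255870 and 60005133 in the immune-enriched libraries, and 34449562 and 34827603 in the sections.

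Hepatocytes were taken as the clusters named from markers together with clusters of at least 100 cells that no cell type list named. This gave 11225 of 12525 kept nuclei and 16289 of 23036 kept TLH cells, of which 3899 nuclei and 6831 TLH cells came from unnamed clusters. The 9 unnamed clusters of nuclei held 7 to 15 lobule landmark enzymes at 1.5-fold or more above the other cell types, while the 5 unnamed TLH clusters held 0 to 11. Of the hepatocyte secretory markers, 0 to 1 in those nuclei clusters and 0 to 2 in those TLH clusters stood above the other types. Summed albumin in the hepatocyte class stood at 27968 to 45385 CPM (the UMIs of a gene scaled to a common total) in nuclei, against 11541 to 23399 CPM in endothelial, mesenchymal and macrophage nuclei of the same libraries. In the unnamed nuclei of the class alone it was 9516 to 14129 CPM, within or below the range of those other types. Across the 9 genes the other cell types held a median of 75.2% of the hepatocyte level in nuclei and 77.4% in TLH, but 9.22% in the immune-enriched libraries. In the latter the share was at most 11.9% for Cps1, Otc, Ass1, Arg1, Nags and Gls2, but 18.3% to 32.1% for Asl, 33.4% to 49.7% for Oat and 375% to 500.3% for Glul. The part of such shared RNA in the levels of nuclei and TLH cells was not tested. Kept barcodes shared between 2 nuclei libraries numbered 1 to 6.

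Stretches upstream of 5 of the genes are shown because these genes differed most along the lobule or held a searched motif. The windows reach 250 bases before the RefSeq start (build GRCr8, which is not the Rnor_6.0 build of the counts). Of the 9 genes, 8 matched an entry, with 10 entries in all, and Arg1 had none. On both strands, the T-cell factor motif CTTTGAT was found in 3.15% of 33469 promoters, CAAAGTCCA (a long form of the hepatocyte nuclear factor 4 motif) in 0.338%, its short form CAAAGTC in 3.95%, and the C/EBP motif TTGCNNAA in 9.22%. Capitals mark matches, and each stretch is written in the direction of its gene.
Glul, chr13:68519250-68519349, plus strand: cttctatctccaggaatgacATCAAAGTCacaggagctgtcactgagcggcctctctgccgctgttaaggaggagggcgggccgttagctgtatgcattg
Oat, chr1:196797755-196797854, minus strand: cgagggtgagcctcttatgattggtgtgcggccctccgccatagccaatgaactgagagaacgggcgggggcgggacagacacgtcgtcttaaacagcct
Gls2, chr7:1201779-1201878, plus strand: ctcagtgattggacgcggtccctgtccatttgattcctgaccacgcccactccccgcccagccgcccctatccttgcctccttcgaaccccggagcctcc
Cps1, chr9:76063763-76063862, plus strand: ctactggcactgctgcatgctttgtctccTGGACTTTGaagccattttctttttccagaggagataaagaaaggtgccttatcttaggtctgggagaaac
Otc, chrX:15202474-15202573, minus strand: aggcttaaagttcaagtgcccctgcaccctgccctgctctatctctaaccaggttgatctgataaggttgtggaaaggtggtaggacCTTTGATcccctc
In Glul the T-cell factor match, 230 to 224 bases before the start, overlapped a short hepatocyte nuclear factor 4 match at 228 to 222. Cps1 held the long form at 71 to 63, and Otc held the T-cell factor letters at 13 to 7. The windows of Oat and Gls2 held none of these letters. The C/EBP letters were in none of the 10 entries. A match is a string of letters and was not tested for binding.

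To place hepatocytes along the lobule, nuclei of each rat were ranked by a score over 12 pericentral and 13 periportal landmark genes that include none of the 9 genes. The ranking was cut into 3 equal zones, of which the outer ones are called periportal and pericentral, and also into 5 equal bins. Glul and Oat were higher and Gls2, Arg1 and Asl lower in the pericentral zone than in the periportal zone. Otc was also higher in the pericentral zone. Cps1, Ass1 and Nags did not pass. In edgeR's quasi-likelihood test with the rat as a block (n = 4 rats), 6 of the 9 genes passed an adjusted p of 0.05, 3 in each direction. In the background of 8665 genes tested 22.5% passed, 13.1% higher and 9.39% lower. By plain CPM, 3 genes were higher and 6 lower in the pericentral zone of all 4 rats, a count that was not made over all genes.

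**Figure D1:**
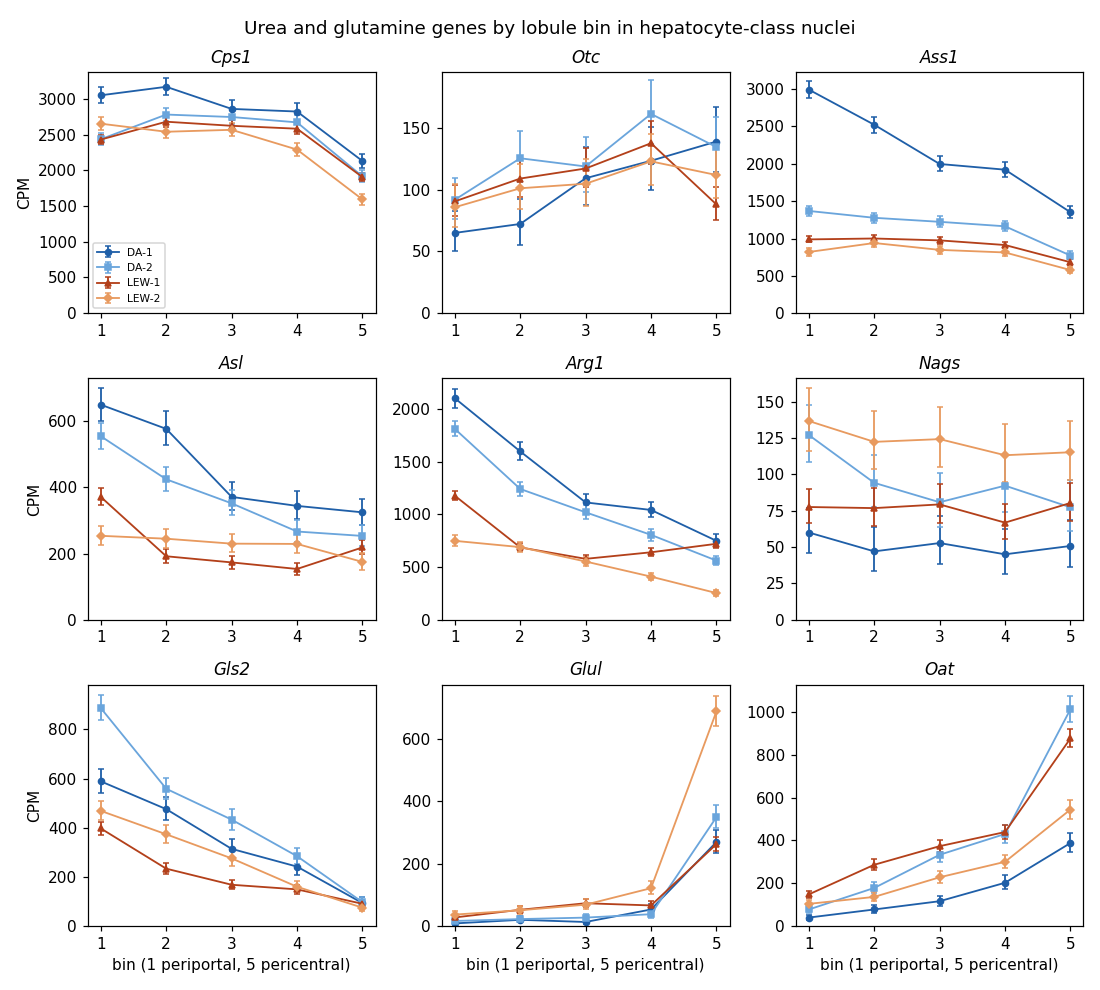
Level (CPM, summed over nuclei, with 95% Poisson intervals) of each gene by lobule bin from 1 (periportal) to 5 (pericentral), 1 line per rat. Glul reaches at most 121 CPM in bins 1 to 4 and 262 to 688 CPM in bin 5, while Gls2 is lower at each step in all 4 rats.

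Glul showed the steepest profile. In the periportal zone its level was 11.4 CPM in DA-1, 15.5 in DA-2, 33.5 in LEW-1 and 43.0 in LEW-2, and in the pericentral zone it was 186, 228, 188 and 463 CPM. All pericentral values lay above all periportal values, and both LEW rats lay above both DA rats in the periportal zone. The log2 difference was 3.50 (SE 0.21, adjusted p = 3.38e-10). Bin 5 stood 4.00 to 9.30 times above bin 4 in the 4 rats, and bin 4 stood 2.37 to 6.59 times above bin 1. In DA-1 the ratio of bin 4 to bin 1 was the larger of its pair, and in the other 3 rats that of bin 5 to bin 4 was. In the nuclei, Glul in other cell types was 99.0% to 199% of the hepatocyte-class level. In each library the periportal value of the class was below that of every other named type. The lowest of those types held 38.8 CPM in DA-1, 41.4 in DA-2, 110 in LEW-1 and 138 in LEW-2.

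Oat rose along the whole axis. Its periportal level was 49.4 CPM in DA-1, 118 in DA-2, 188 in LEW-1 and 113 in LEW-2, against 326, 796, 727 and 450.3 CPM pericentrally. The groups did not overlap, and the log2 difference was 2.51 (SE 0.18, adjusted p = 5.08e-09). Oat in bin 5 was 1.82 to 2.36 times that in bin 4, below the ratios of Glul for that step, and bin 4 stood 2.91 to 5.60 times above bin 1, which overlaps the range of Glul.

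Gls2, which supplies ammonia from glutamine inside mitochondria, had the opposite profile. It measured 544 CPM in DA-1, 777 in DA-2, 340.0 in LEW-1 and 442 in LEW-2 in the periportal zone and 138, 164, 108 and 106 CPM in the pericentral zone. All 4 rats fell, by a log2 difference of -1.81 (SE 0.15, adjusted p = 3.76e-08). In bin 5 the level had come down to 74.2 to 96.7 CPM, 0.11 to 0.23 times that in bin 1.

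Of the cytosolic urea cycle enzymes, Arg1 and Asl fell towards the central vein and Ass1 did not pass. Arg1 was 1938 CPM in DA-1, 1603 in DA-2, 1019.9 in LEW-1 and 728 in LEW-2 periportally and 851, 661, 682 and 307 CPM pericentrally, a log2 difference of -0.89 (SE 0.16, adjusted p = 0.000486). The DA and LEW ranges did not overlap in the periportal zone and did in the pericentral zone. Asl was 621, 511, 312 and 254 CPM periportally and 327, 252, 194 and 193 CPM pericentrally (log2 difference -0.58, SE 0.15, adjusted p = 0.00742). In LEW-1 both genes rose from bin 4 to bin 5, Asl from 153 to 218 CPM and Arg1 from 639 to 719 CPM. In DA-1, DA-2 and LEW-2 both fell at that step. The share of nuclei from named clusters fell there from 89.1% to 63.4% in LEW-1 and from 77.2% to 59.5% in DA-2. It also fell in DA-1 and LEW-2. Over the LEW-1 class, Arg1 was 365 CPM in named and 1458 CPM in unnamed clusters. Asl was 449 CPM in the unnamed clusters of LEW-1 and lower in the named ones. The part of cluster make-up in these steps was not tested. Ass1 was 2795 CPM in DA-1, 1350.1 in DA-2, 1001 in LEW-1 and 863 in LEW-2 in the periportal zone and 1528, 938, 765 and 684 CPM in the pericentral zone. Its CPM was lower pericentrally in each rat, with a log2 difference of -0.35 (SE 0.16, adjusted p = 0.108). It passed under 4 of 20 alternatives, among them the ranking without amino acid enzymes among the periportal landmarks (-0.38, adjusted p = 0.0361) and the fit without the top 5% of nuclei by UMIs (-0.48, adjusted p = 0.04).

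Of the mitochondrial steps, Cps1 and Nags had the smallest differences of the 9 genes, whereas Otc passed. Cps1 was 3103 CPM in DA-1, 2549.7 in DA-2, 2522 in LEW-1 and 2595 in LEW-2 periportally and 2344, 2200.2, 2147 and 1865 CPM pericentrally, with a log2 difference of -0.15 (SE 0.16, adjusted p = 0.51). Within this small difference the profile had a step: Cps1 in bin 4 was 0.86 to 1.10 times that in bin 1, and in bin 5 it was 0.70 to 0.75 times that in bin 4. Ass1 in bin 5 was 0.66 to 0.75 times that in bin 4, and bin 4 was 0.64 times bin 1 in DA-1 and 0.85 to 0.99 times in the other 3 rats. Albumin also fell from bin 4 to bin 5, from 38228 to 31338 CPM in DA-1 and from 40385 to 25551 in DA-2. In LEW-1 it fell from 48848 to 31384 CPM and in LEW-2 from 31193 to 25416. Nags was low, at 57.6 to 128 CPM in the periportal zone and 48.2 to 111 CPM in the pericentral zone (log2 difference -0.08, SE 0.14, adjusted p = 0.685). Otc was 62.1 CPM in DA-1, 105 in DA-2, 98.5 in LEW-1 and 93.1 in LEW-2 periportally and 139, 144, 103 and 119 CPM pericentrally (log2 difference 0.66, SE 0.17, adjusted p = 0.0071). LEW-1 had the smallest change of Otc, and its bin 5 was 0.97 times its bin 1.

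**Figure D2:**
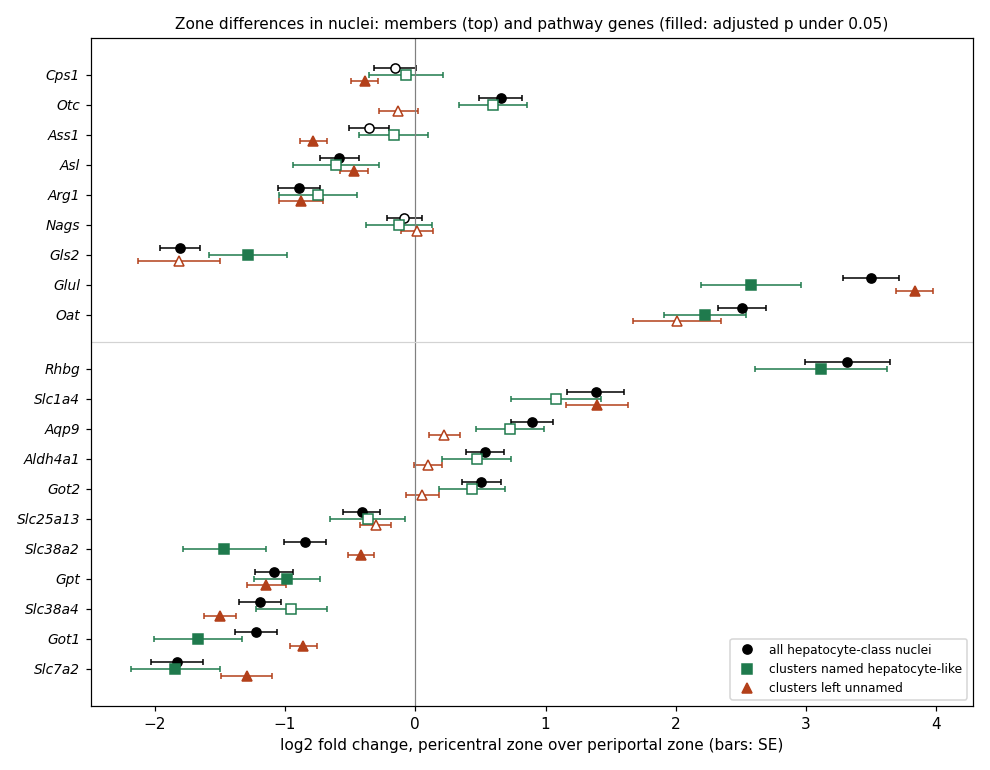
Log2 difference between the pericentral and the periportal zone (edgeR, bars are SE) for the 9 genes above the line and 11 called pathway genes below it, in all hepatocyte-class nuclei (circles), named clusters only (squares) and unnamed clusters only (triangles). Filled symbols passed an adjusted p of 0.05, and Glul passed in all 3 fits.

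The other genes of the pathway came from a list of 34 transporters and enzymes, of which 20 could be tested. Of these, 5 rose and 6 fell towards the central vein, with a median log2 difference of -0.11 over the 20, against -0.04 over all genes tested. Rhbg, an ammonia transporter, rose with Glul and Oat by 3.32 (SE 0.32) on the log2 scale. It went from 0.915 to 3.38 CPM periportally to 16.6 to 32.5 CPM pericentrally. Its periportal values in DA-1 (1.27 CPM of 1578801 UMIs) and DA-2 (0.915 CPM of 2186523 UMIs) lay below 3 counts, so the size of its fold is uncertain. Slc1a4, a neutral amino acid transporter (1.38), Aqp9, a channel for glycerol and urea (0.90), Aldh4a1 of proline breakdown (0.53) and the mitochondrial aspartate aminotransferase Got2 (0.51) also rose. Slc7a2, a transporter for arginine, ornithine and lysine, fell by 1.83 on the log2 scale (SE 0.20), from 631 to 104 CPM in DA-1, 371 to 66.8 in DA-2, 143 to 38.1 in LEW-1 and 99.2 to 53.2 in LEW-2. The cytosolic aminotransferases Got1 (-1.22) and Gpt (-1.08), the amino acid transporters Slc38a4 (-1.19) and Slc38a2 (-0.85), and the aspartate-glutamate carrier Slc25a13 (-0.41) fell as well. Got1 and Got2 are the cytosolic and mitochondrial forms of one activity, and only Got1 passed under total UMI scaling (-1.40, against 0.33 for Got2 with an adjusted p of 0.0832). Ranking by pericentral landmarks alone put Got2 at -0.25, Aldh4a1 at -0.17, Aqp9 at -0.03, Slc25a13 at 0.15 and Slc38a2 at 0.04, none of which passed.

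Depth and cluster make-up differed between the zones. The median per nucleus was 1772 to 2606 UMIs periportally and 1423 to 2040 pericentrally, and named clusters supplied 19.0% to 96.9% of periportal and 47.4% to 73.4% of pericentral nuclei. With all nuclei thinned to 1000 UMIs the same 6 genes passed, with Glul at 3.14, Oat at 2.22 and Gls2 at -1.69. In named clusters alone, Glul (2.58), Oat (2.22) and Gls2 (-1.28) passed, whereas Otc (0.59), Arg1 (-0.74) and Asl (-0.61) did not. In unnamed clusters alone, Cps1 (-0.39, adjusted p = 0.00938) and Ass1 (-0.78, adjusted p = 5.00e-07) passed, Otc was -0.13, and Gls2 (-1.81, adjusted p = 0.0567) and Oat (2.01, adjusted p = 0.055) did not pass. The same ranking by pericentral landmarks ended the calls of Otc (0.04), Arg1 (-0.31) and Asl (0.16).

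The scaling also bears on the flat genes. Scaling to total UMIs, chosen after the values were seen, moved the median of all genes from -0.04 to -0.22 and turned the split of calls from 1134 higher and 814 lower to 692 higher and 1918 lower. Under it Cps1 was -0.33 (adjusted p = 0.0955), Ass1 passed at -0.53 (adjusted p = 0.0104), and Otc was 0.48 (adjusted p = 0.0242). Leaving out DA-2 left Asl at -0.51 (adjusted p = 0.105) and took the calls over all genes from 1948 to 817, and leaving out DA-1 took them to 1211.

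Glul and Oat had steeper profiles in DA than in LEW nuclei in the test of that difference. The pericentral to periportal ratio of Glul was 16.3 in DA-1 and 14.6 in DA-2 against 5.62 in LEW-1 and 10.8 in LEW-2, and the LEW minus DA difference of the log2 values was -1.12 (SE 0.31, adjusted p = 0.0443). For Oat the ratios were 6.60 and 6.77 in DA and 3.87 and 3.98 in LEW, a difference of -0.91 (SE 0.22, adjusted p = 0.0231). These 2 of the 9 genes passed, where 2.08% of 9354 genes did and 1.57% in that direction. Slc7a2, from the pathway list, passed in the other direction, with ratios of 0.16 and 0.18 in DA and 0.27 and 0.54 in LEW (0.96, SE 0.25, adjusted p = 0.0395). In the immune-enriched hepatocytes, with 1 library per strain and no test, the Glul ratio of the zones was 12.6 in DA (95% interval 5.11 to 40.1, with 5 periportal UMIs) and 34.5 in LEW (26.2 to 46.4). The Oat ratio was 18.4 in DA (12.5 to 28.2) and 24.0 in LEW (20.1 to 28.9). For both genes the ratio was larger in LEW, the reverse of the nuclei, and the intervals overlap. The difference between the strains was not tested there.

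These strain-by-zone calls were lost under many settings. Under DESeq2 the adjusted p was 0.291 for Glul and 0.0554 for Oat, and under total UMI scaling it was 0.0963 and 0.0637. Glul had an adjusted p of 0.114 without DA-1 and 0.16 without DA-2, and without LEW-1 it was -0.63 (adjusted p = 0.685). Oat was no longer called without DA-2 or without LEW-1, while its difference stayed at -1.02 to -0.88 over the fits that left out 1 rat. Slc7a2 was lost without LEW-2 (0.41), without DA-1 and without DA-2. Calls over all genes went from 195 to 15 without LEW-1, 73 without DA-2 and 101 without DA-1. Otc was -0.71 (SE 0.23, adjusted p = 0.0894), and without DA-2 it passed at -1.13 (adjusted p = 0.0484).

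The immune-enriched libraries gave fewer but much deeper hepatocytes. The study's methods describe a centrifugation step for these samples that removed parenchymal cells, which include hepatocytes, so these are the hepatocytes left after it. The hepatocyte class made up 20.0% of the kept cells in the DA library and 59.5% in the LEW library. How far the remaining cells represent the hepatocytes of the whole liver was not tested. With at least 5000 UMIs there were 131 DA cells (median 39290 UMIs) and 905 LEW cells (median 36881 UMIs). There is 1 library per strain, so no test was made, and intervals cover counting error only. Cps1, at 1882 CPM in DA and 1746 in LEW, was found in 95.4% and 99.1% of the cells. At 1000 UMIs per cell it was found in 63.5% and 67.8% of hepatocytes against 2.56% and 13.1% as the median of the other cell types.

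Along the lobule in these cells, the glutamine genes again had the largest differences. By zones, Oat went from 16.6 to 304 CPM in DA and from 11.7 to 280.3 CPM in LEW, and Glul from 3.07 to 38.6 CPM in DA and from 4.79 to 165 CPM in LEW. Gls2 went from 231 to 48.4 CPM in DA and from 138 to 66.5 CPM in LEW. Ass1 was 0.59 and 0.67 times, and Arg1 0.51 and 0.67 times, its periportal level in the pericentral zone of DA and LEW. Albumin also fell between these zones, from 45927 to 26970 CPM in DA and from 60579 to 33755 CPM in LEW. Cps1 was 0.95 times in DA and 1.09 times in LEW, Otc 1.24 and 1.08 times, Asl 0.74 and 0.96 times, and Nags 0.79 and 1.10 times. The 95% intervals of Ass1, Arg1 and Gls2 lay below 1 and those of Otc above 1 in both libraries. For Asl only that of DA lay below 1 (0.59 to 0.93), for Cps1 only that of LEW lay above 1 (1.07 to 1.11), and those of Nags included 1 in both. In LEW, Glul was 267 CPM in bin 5 and 4.45 to 7.54 CPM in the other bins.

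Between the 2 immune-enriched libraries the LEW to DA ratio of Glul was 3.40 (95% interval 2.71 to 4.31), with 1735 UMIs in LEW and 79 in DA. Otc was 1.48 times higher in LEW (1.39 to 1.56) and Nags 0.60 times (0.53 to 0.68). The other 6 genes lay between 0.76 for Gls2 and 1.15 for Asl. Most Glul in LEW came from few cells. After thinning to 5000 UMIs, 19 of 905 cells held 3 or more Glul UMIs and 292 of the 318 Glul UMIs. In DA 0 of 131 cells did so, which allows a share of up to 2.29%, against 2.10% in LEW, so that a difference in the share of such cells was not detectable. The highest Glul level in both libraries was in Marco/Cd5l macrophages, with 611 and 696 CPM.

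**Figure D3:**
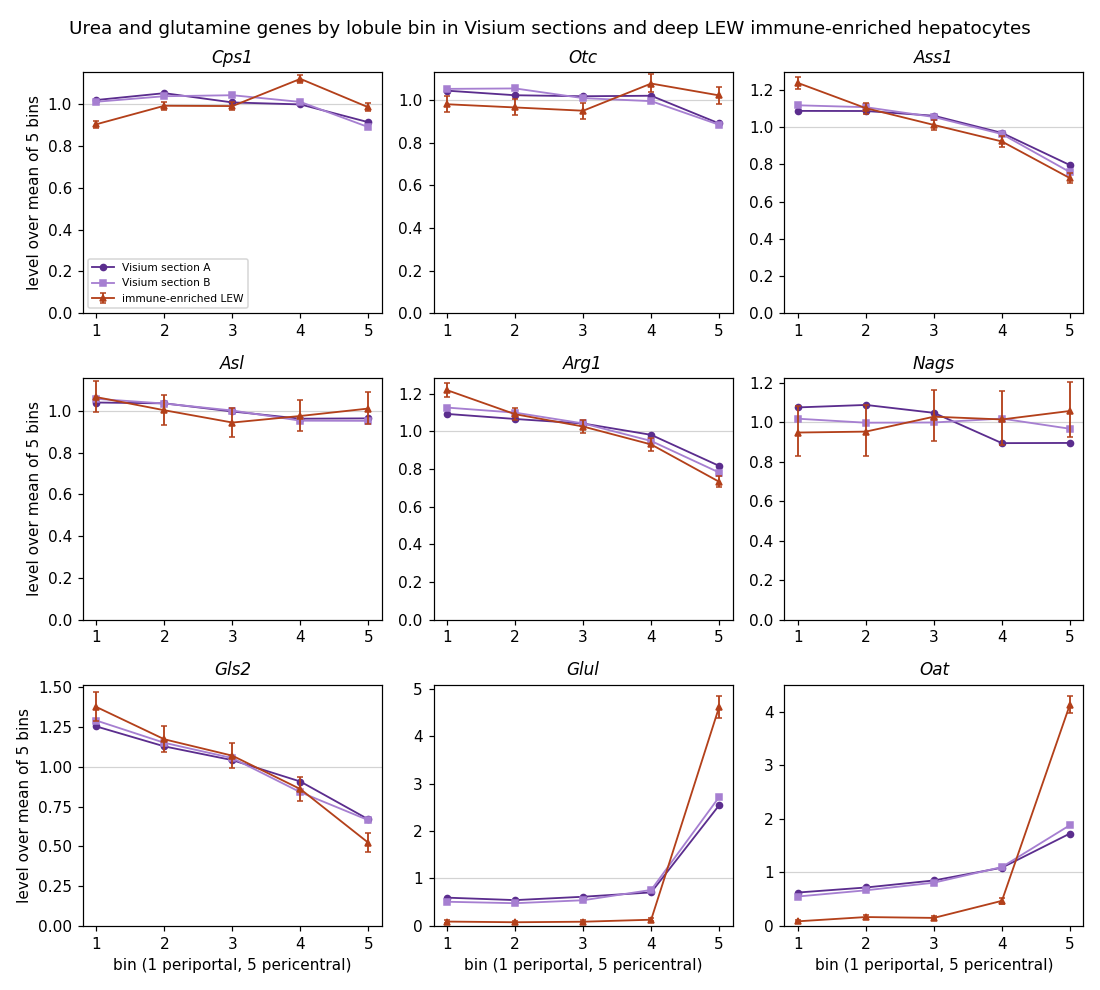
Level of each gene by lobule bin, divided by its mean over the 5 bins, in Visium sections A and B and in LEW immune-enriched hepatocytes of at least 5000 UMIs (bars on the latter are 95% Poisson intervals). Ass1, Arg1 and Gls2 decline together in all 3, and the rise of Glul in bin 5 is sharper in the single cells than in the spots.

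In the Visium sections, 2437 and 2404 spots were ranked by the same score and cut into 5 bins, with medians of 12759 to 15694 UMIs per spot. Of the 9 genes 2 were higher and 7 lower in the pericentral bin of both sections, a count that was not made over all genes. For comparison, albumin (Alb) went from 107937 CPM in bin 1 to 87657 CPM in bin 5 of section A. In section B it went from 107911 to 84388 CPM. Glul went from 63.9 to 273 CPM in section A and from 54.1 to 289 CPM in section B, ratios of 4.27 and 5.34. Oat went from 249 to 690 CPM and from 223 to 764 CPM, ratios of 2.77 and 3.43. Glul stayed between 50.8 and 80.6 CPM in bins 1 to 4, whereas Oat increased at each step in both sections.

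The other 7 genes had shallower profiles in the sections. Gls2 was 0.53 times and 0.51 times its periportal level in bin 5 of sections A and B, Ass1 0.73 and 0.68 times, and Arg1 0.75 and 0.69 times. Cps1 was highest in bin 2 of section A and bin 3 of section B, and bin 5 was 0.90 and 0.88 times bin 1. Asl was 0.93 and 0.90 times and Nags 0.83 and 0.95 times. Otc was 653 CPM in bin 1 and 557 in bin 5 of section A and 717 and 603 CPM in section B, ratios of 0.85 and 0.84. Between the same outer bins of the nuclei the Otc ratios were 2.14 in DA-1, 1.46 in DA-2, 0.97 in LEW-1 and 1.30 in LEW-2, so that LEW-1 was below 1 as the sections were. The sections are from another strain and read whole tissue, and the difference was not tested.

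The single-cell data allowed the presence of Glul or Oat to be set against that of Cps1, Ass1 and Gls2 in the same cell. In nuclei thinned to 1000 UMIs, the odds ratio for finding Cps1 where Glul was found was 0.21 in DA-1, 0.21 in DA-2, 0.48 in LEW-1 and 0.33 in LEW-2. In DA-1, 60.2% of the nuclei with Glul held Cps1 against 87.9% of those without. For Glul with Ass1 the odds ratios were 0.24 to 0.56 and for Glul with Gls2 0.35 to 0.82. For Oat they were 0.56 to 0.80 with Cps1, 0.51 to 0.66 with Gls2, and 0.49 to 1.03 with Ass1, where LEW-2 was above 1. Glul and Oat were found together, with odds ratios of 2.31 to 4.86. Of the 6 opposing pairs, 5 were thus below 1 in all 4 rats, and 4 rats are too few for a sign-flip test to pass 0.05. Cps1 was found in 85.5% to 88.0% of the nuclei of the class and, as a median over other types, in 59.4% to 72.5% of theirs, all thinned to 1000 UMIs. Unthinned, at median depths of 1526 to 2115 UMIs, Cps1 was found in 92.4% to 95.5% of the nuclei of the class. The share of nuclei with Glul that held Cps1, 60.2% to 78.9%, was near the share in those other types.

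In LEW immune-enriched hepatocytes thinned to 5000 UMIs, 31 of 42 cells with Glul held Cps1 against 860 of 863 without, an odds ratio of 0.011 and below those of the 4 nuclei libraries. The odds ratios were 0.08 for Ass1 and 0.31 for Gls2, while that of Glul with Oat was 7.32. These values moved with depth, and at 3000 UMIs and without thinning the odds ratio was 0.054 and 0.048 for Glul with Cps1, 0.16 and 0.056 for Glul with Ass1, and 11.9 and 1.67 for Glul with Oat. In the DA library only 6 cells held Glul, and all 6 held Cps1. Cps1 was also in 119 of the 125 DA cells without Glul, so that no difference could be read. The odds ratios for Glul there were 0.20 with Ass1, 0.25 with Gls2 and 2.76 with Oat, each from 6 cells with Glul, and that of Oat with Cps1 was 1.44. Of these 6 DA cells, 1 held all 45 of their UMIs of Lyve1, and 1 held a UMI of Stab2, both markers of endothelial cells.

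The 19 LEW cells with 3 or more Glul UMIs, a limit set after the values were seen, differed from the other cells in most of the 9 genes. Cps1 was 232 CPM against 1846 CPM in the 863 cells without Glul, 7.97-fold lower (95% interval 5.26 to 12.7). Ass1 was 63.2 against 799 CPM, 12.6-fold lower (5.80 to 34.5), and Arg1 was 63.2 against 598 CPM, 9.47-fold lower (4.35 to 25.8). Gls2 had 0 UMIs in these cells, at least 3.51-fold below the 111 CPM of the others with a floor of 3 counts over the group. Oat was 2789 against 62.8 CPM, 44.4 times higher (37.4 to 52.8), and all 19 cells held it.

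Otc, Asl and Nags differed less in these 19 cells of 1 library. Otc was 284 CPM in the 19 cells and 414 CPM in those without Glul (ratio 0.69, 0.45 to 1.00), Asl was 189 against 112 CPM (1.69, 0.99 to 2.70) and Nags 52.6 against 41.3 CPM (1.28, 0.41 to 3.03). The intervals of Otc, Asl and Nags do not reach the ratios of Cps1 (0.13), Ass1 (0.079) and Arg1 (0.11). Alb was 27305 CPM and Cyp2e1 2326 CPM in the 19 cells, while Ptprc, Cd5l, Cd163, Lyve1 and Stab2 had 0 UMIs and Marco had 1. Cyp7a1, a landmark gene for bile acid synthesis, was 705 against 4.63 CPM.

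**Figure D4:**
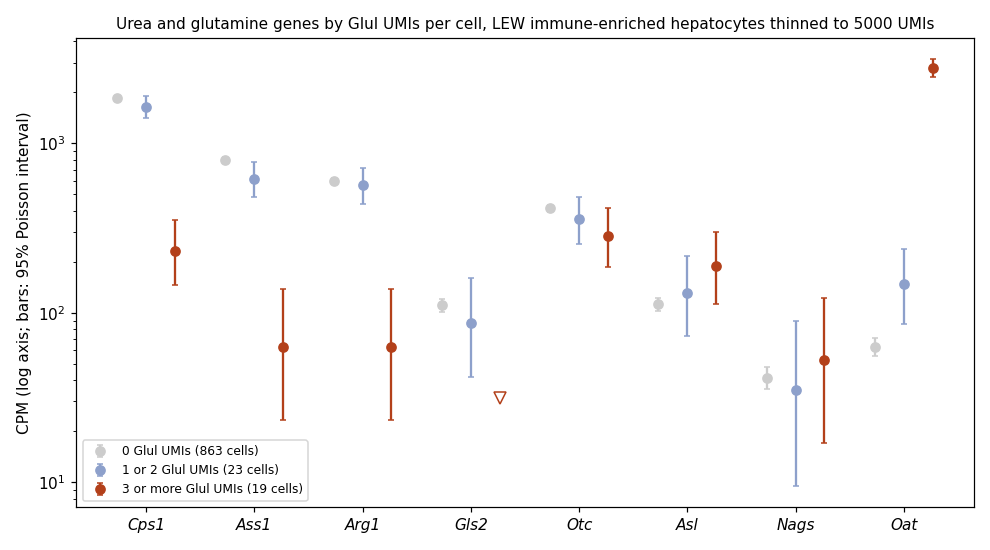
Level (CPM, log axis, 95% Poisson intervals) of the other 8 genes in LEW immune-enriched hepatocytes grouped by their Glul UMIs after thinning to 5000 UMIs. The open triangle is the floor of 3 counts for Gls2, which had 0 UMIs in the 19 cells with 3 or more, and Cps1, Ass1 and Arg1 are lowest in those 19 cells.

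In LEW cells with 1 or 2 Glul UMIs, Cps1 was 1643 CPM and Oat 148 CPM, close to the cells without Glul for Cps1. In the nuclei, 12, 26, 23 and 51 nuclei of DA-1, DA-2, LEW-1 and LEW-2 held 3 or more of 1000 UMIs from Glul. Cps1 in them was 333, 769, 609 and 824 CPM against 2726, 2687, 2549 and 2552 CPM in nuclei without Glul, 8.18-, 3.49-, 4.19- and 3.10-fold lower. Oat was 500, 1962, 2217 and 882 CPM against 138, 307, 367 and 266 CPM. Ass1 was 3.92-, 5.68- and 4.09-fold lower in DA-1, DA-2 and LEW-2, and in LEW-1 it had 2 UMIs, a ratio of 0.089 (95% interval 0.011 to 0.32). The 4 rats thus moved the same way as the LEW immune-enriched cells for Cps1, Ass1 and Oat, at smaller folds for Oat. Asl did not, with ratios of 0.23, 0.65, 0.47 and 0.82 in nuclei from 1 to 8 UMIs, whose 95% intervals all include 1 and overlap that of the LEW cells. Otc had 0 UMIs in these nuclei of DA-1 and LEW-1, 3 in DA-2 and 6 in LEW-2, too few to show a difference.

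Levels over all hepatocytes showed no strain difference that passed for any of the 9 genes, although in TLH cells Gls2 passed under 8 of 15 alternatives, and Glul and Oat under 1 each. The make-up of the TLH class differed by strain, with 40.1% and 25.6% of the DA cells from named clusters against 82.1% and 100% of the LEW cells, and the part of this in the differences was not tested beyond the named clusters alone. In the nuclei 1.34% of 10599 genes passed, 0.547% higher and 0.793% lower in LEW, and in TLH cells 4.04% of 9934 genes did, 1.89% higher and 2.14% lower. At an unadjusted p under 0.05, 1079 genes in nuclei and 2048 in TLH cells did. In bulk sums, fewer cells of a zone and less RNA per cell cannot be told apart.

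**Figure D5:**
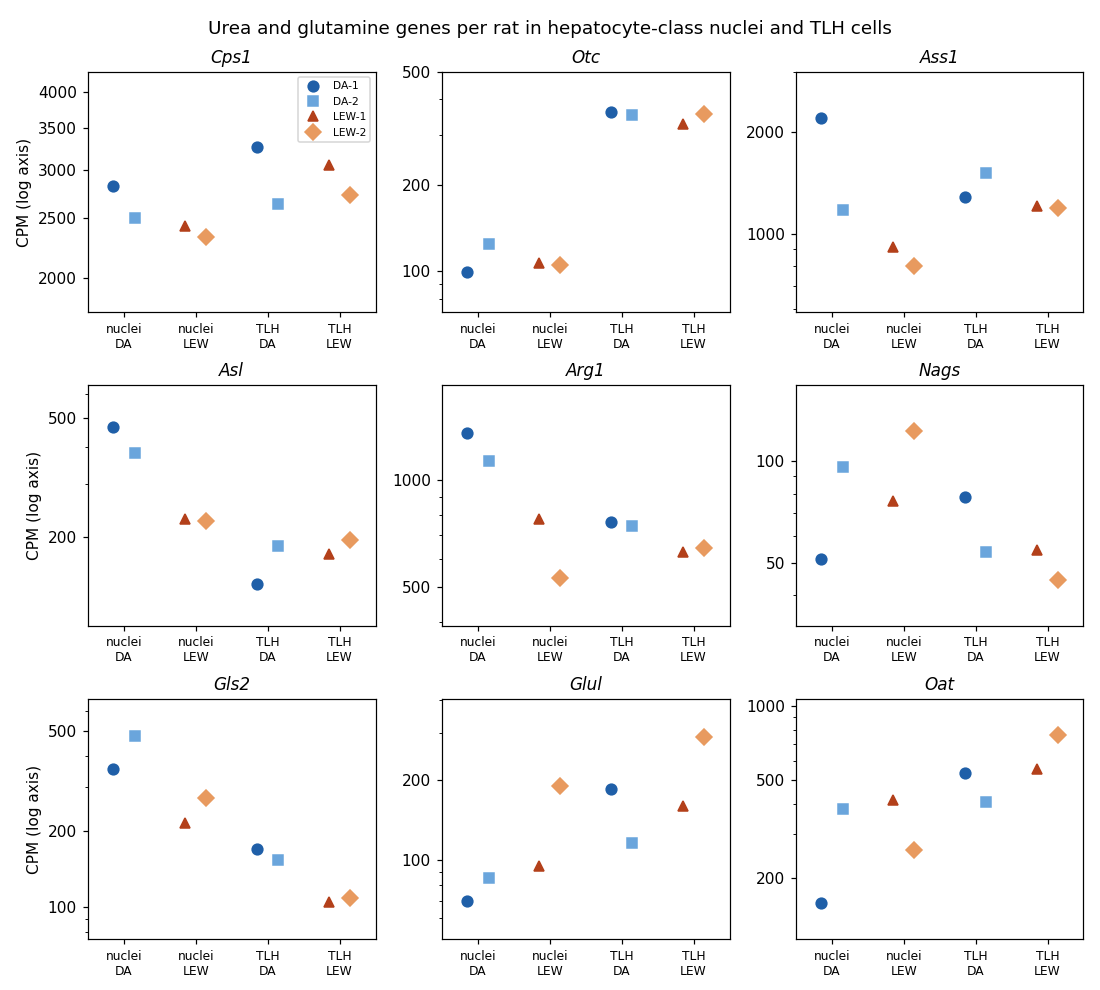
Level per rat (CPM, log axis) of the 9 genes in hepatocyte-class nuclei and TLH cells by strain, 1 symbol per rat. In nuclei Cps1, Ass1, Asl, Arg1 and Gls2 are lower and Glul is higher in both LEW rats, and in TLH cells Ass1, Arg1 and Gls2 are lower and Oat is higher, without overlap and without a call. How many of all genes separate in this way was not counted.

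The LEW minus DA difference had the same sign in nuclei and TLH cells for 7 of the 9 genes, with Cps1 and Otc near 0, and opposite signs for Asl and Nags. Agreement of sign was not counted over all genes. Glul was 69.9 CPM in DA-1, 85.4 in DA-2, 94.8 in LEW-1 and 190.1 in LEW-2 in the nuclei (log2 difference LEW minus DA 0.87, SE 0.37, adjusted p = 0.426) and 185, 116, 160 and 290.0 CPM in TLH cells (0.61, SE 0.38, adjusted p = 0.454). In TLH cells the strains overlapped, and leaving out single rats put the Glul difference there at 0.11 to 0.98. Gls2 was 355, 480, 216 and 272 CPM in the nuclei (-0.75, SE 0.40, adjusted p = 0.581) and 170.3, 154, 105 and 109 CPM in TLH cells (-0.58, SE 0.13, adjusted p = 0.0502). The strains did not overlap for Gls2 in either, and the alternatives under which Gls2 passed in TLH cells included DESeq2 (adjusted p = 0.0417), a limit of 1500 UMIs for LEW in place of 2000 (-0.60, adjusted p = 0.0438) and named clusters only (-0.63, adjusted p = 0.0275). In those named clusters the median mitochondrial share per cell was 18.5% and 14.8% in DA against 5.28% and 4.44% in LEW. Glul passed with crossed numbers as the block (0.58, adjusted p = 0.0491) and Oat with no low-count filter (0.50, adjusted p = 0.0112). The immune-enriched ratio of Gls2, 0.76 (0.70 to 0.83), had the same sign.

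The cytosolic urea cycle enzymes had lower values in LEW nuclei without passing the test, and in named clusters alone Ass1 was 0.017 (adjusted p = 0.994) on the log2 scale. Ass1 was 2199 CPM in DA-1, 1175 in DA-2, 913 in LEW-1 and 802 in LEW-2 (-0.97, SE 0.47, adjusted p = 0.527), Arg1 was 1358, 1132, 781 and 531 CPM (-0.89, SE 0.44, adjusted p = 0.542), and Asl was 465, 383, 230 and 227 CPM (-0.87, SE 0.41, adjusted p = 0.502). In TLH cells the differences were -0.20 for Ass1, -0.22 for Arg1 and 0.20 for Asl (SE 0.14, 0.12 and 0.18). The 2 DA nuclei libraries differed among themselves by more than the LEW libraries did for Ass1. Leaving out single rats put the Ass1 difference in nuclei at -1.40 to -0.31. Cps1 was 2332 to 2818 CPM in nuclei (-0.14, SE 0.42) and 2634 to 3266 CPM in TLH cells (-0.01, SE 0.14). In named TLH clusters alone Cps1 was -0.62 (SE 0.22, adjusted p = 0.0622), and in named clusters of nuclei it was 0.37 (adjusted p = 0.812). Over the whole class Otc was -0.04 in nuclei and in TLH cells (SE 0.33 and 0.13), Nags 0.45 and -0.39 (SE 0.36 and 0.19), and Oat 0.41 and 0.51 (SE 0.49 and 0.19).

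Among the pathway genes edgeR called 0 of 23 in nuclei and 2 of 24 in TLH cells. Slc25a13, which exports aspartate for Ass1, was 13.1 and 17.4 CPM in the DA rats and 36.7 and 38.1 CPM in the LEW rats (1.31, SE 0.18, adjusted p = 0.00791), and Slc25a15, which brings ornithine to Otc in mitochondria, was 568 and 781 CPM in DA and 368 and 361 CPM in LEW (-0.87, SE 0.18, adjusted p = 0.0367). In the nuclei Slc25a13 was 0.15 (SE 0.33, adjusted p = 0.924) and Slc25a15 was -1.88 (SE 0.51, adjusted p = 0.122). Without LEW-1 or LEW-2 the adjusted p of Slc25a13 was 0.0929 and 0.0869 and that of Slc25a15 was 0.213 and 0.24, and without DA-2 Slc25a15 was -0.58 (adjusted p = 0.166). DESeq2 called 0 of the 9 genes and 5 of 23 pathway genes in nuclei, all 5 lower in LEW, where it called 2.22% of 10599 genes, 0.877% higher and 1.34% lower.

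The genes whose profile over 20 points (4 rats by 5 bins of nuclei, centred per rat) was most like that of each gene are given as a description. The points share libraries and the ranking score. Gls2 was most like Aspg, an asparaginase (r = 0.99), and the landmarks Sds (0.99) and Uroc1 (0.98), and Oat was most like the landmark Cyp7a1 (0.99). Glul was most like the landmark Slc13a3 (0.96) and Tcn2 (0.95), a vitamin B12 carrier. Arg1 went with the mitochondrial carrier Slc25a47 (0.98) and with Got1 (0.98), Ass1 with Slc38a4 (0.95) and Tdo2 (0.94), a tryptophan-degrading enzyme, Asl with the transcription factor Prox1 (0.97), Otc with Selenot (0.97), Cps1 with the glucose transporter Slc2a2 (0.92) and Nags with Smim19 (0.86). Among the 9 genes themselves, Cps1 and Ass1 had an r of 0.86 and Cps1 and Otc an r of -0.24.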

How the data were processed

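Single-cell, single-nucleus and Visium libraries of rat liver were read as the deposited UMI counts per gene and barcode, which the authors made with Cell Ranger 3.1.0 and Space Ranger 1.1.0 (per the submitters' processing notes) against Rnor_6.0 with Ensembl annotation, 1 library per file and not normalized. Other deposited columns hold gene and barcode names. TLH and immune-enriched matrices carry no gene names and were named by row from the nuclei features, which have the same 32883 rows. The 9 genes, the pathway list and the tests were chosen with earlier results of these data known.

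Barcodes with at least 1000 to 2000 UMIs and at most 10% to 50% mitochondrial UMIs were kept, by library, after the limits in the paper, except that both LEW TLH libraries were cut at 2000 UMIs where the paper's text gives 1500, which was run as an alternative. With 2000 the cells kept per TLH library (6623, 7112, 5457 and 3844) equal those the paper states. Cells were clustered with leidenalg 0.10.2 and named from marker lists. Large unnamed clusters of TLH cells and nuclei were added to the hepatocyte class by a rule set with the counts in view. Doublets were not removed and no caller was run, and leaving out the top 5% of cells by UMIs stands in for it. Nuclei and spots were ranked by the mean z score of pericentral less periportal landmarks, with the landmarks left out of the calls.

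UMI sums per rat, and per rat and zone, were tested with edgeR 4.0.16 (quasi-likelihood, TMM, filterByExpr, Benjamini-Hochberg over all genes at 0.05) in R 4.3.3, with DESeq2 1.42.0 as an alternative. The scripts were tested on simulated data. With no word in the labels on separate preparation beyond the rat, p-values of the strain tests measure the spread between 2 rats per strain. Those of the zone test measure the spread of the zone difference over the 4 rats. In the zone by strain test it is the spread of that difference between rats of a strain. Levels are CPM of summed UMIs. Intervals are exact Poisson at 95% and, with the floor of 3 counts, cover counting error only. Odds ratios added 0.5 to each count of cells thinned to one depth. Named genes were the 9 genes, pathway genes past the threshold, up to 12 per comparison, and the 5 genes with the highest r to each of the 9 among 7128 genes, of which 1 to 3 are printed. Alternatives changed the test, scaling, low-count filter, block, landmarks, zones, depth, cell filter and hepatocyte definition, and left out each rat. Those on named or unnamed clusters, on 2000 UMIs, on total UMI scaling and on crossed numbers were chosen after seeing the data.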

Additional observations from a re-analysis of the deposited data

Results flagged for a closer look

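Over all 9354 genes tested, the difference between the strains in the pericentral to periportal change passed the edgeR test for 195 (2.08%). Among the urea cycle and glutamine genes and the pathway list, this difference passed for 3 genes. It was -1.12 on the log2 scale (LEW minus DA) for Glul, -0.91 for Oat and 0.96 for Slc7a2, so that all 3 had a smaller zone difference in LEW. In the immune-enriched libraries, 1 per strain, the zone ratios of Glul and Oat were larger in LEW, the reverse of the nuclei. The 95% intervals of DA and LEW overlapped for Glul (5.11 to 40.1 and 26.2 to 46.4) and for Oat (12.5 to 28.2 and 20.1 to 28.9). The difference was not tested there. Named clusters supplied 19.0% to 96.9% of the periportal nuclei, and the part of that spread in the difference was not tested beyond the fits in named or unnamed clusters alone, in which none of the 3 passed. In unnamed clusters the sign turned for Oat (0.46) and Slc7a2 (-0.092).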

How the results depend on the processing

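Counts of called genes moved with the setting, and the cause was not tested. The zone test called 1948 genes, and 1185 under DESeq2, 83 with no replicate block, 894 without amino acid enzymes among the landmarks, 1069 at 1500 UMIs and 5% mitochondrial, 1171 at 2000 UMIs, 186 in named and 622 in unnamed clusters, and 817 to 2334 leaving out single rats. The zone by strain test called 195, and 34 under DESeq2, 6 in unnamed clusters, 103 under total UMI scaling and 15 to 284 leaving out rats. By edgeR it called 0 with no replicate block (175 at an unadjusted p under 0.05) and 0 in named clusters (468). The strain test in nuclei called 142, and 235 under DESeq2, 508 with no low-count filter, 527 with the replicate block, 39 in named and 36 in unnamed clusters, 65 at 1500 UMIs and 5% mitochondrial, 59 at 2000 UMIs, 351 under total UMI scaling and 126 to 279 leaving out rats. In TLH cells it called 401, and 1103 with no low-count filter, 178 with the replicate block, 607 over all cells, 1943 in named clusters and 68 to 255 leaving out rats. The difference between the rats of DA, taken in number order, correlated over genes with that of LEW at 0.12 in nuclei and -0.18 in TLH. The libraries themselves correlated at 0.92 to 0.97 in nuclei and 0.96 to 0.99 in TLH. With so few rats per strain, these values cannot decide whether same-numbered rats shared a preparation. A block with crossed numbers called 607 in TLH. Without thinning, 3 rather than 5 opposing pairs had odds ratios below 1 in all 4 rats, and leaving out single rats gave 5 to 6.

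Signs turned for called genes as well as for values near 0, and the turned values did not pass. In the zone test Otc was -0.13 in unnamed clusters, Nags 0.0093 by upper and lower groups, 0.11 by pericentral landmarks, 0.013 in unnamed clusters and 0.080 at 2000 UMIs, and by pericentral landmarks Asl was 0.16, Slc25a13 0.15, Slc38a2 0.041, Got2 -0.25, Aqp9 -0.032 and Aldh4a1 -0.17. In the zone by strain test, unnamed clusters gave Ass1 -0.26, Asl -0.16, Arg1 -0.081, Gls2 -0.60, Oat 0.46 and Slc7a2 -0.092, and 2000 UMIs gave Ass1 -0.098, Arg1 -0.023 and Gls2 -0.32. Leaving out rats gave Arg1 -0.14 to 0.43, Nags -0.036 to 0.20 and Gls2 -0.069 to 0.23. For the strain difference in nuclei, named clusters gave Cps1 0.37, Otc 0.32 and Ass1 0.017, unnamed clusters gave Oat -0.35, and Otc was 0.010 with no filter, 0.19 without the top 5% of cells and 0.019 over all cells. Leaving out rats gave Cps1 -0.29 to 0.061, Otc -0.18 to 0.091 and Oat -0.12 to 1.07. In TLH cells Cps1 was 0.032 over all cells and 0.017 at 1500 UMIs for LEW, Otc was 0.061 in named clusters, and leaving out rats gave Cps1 -0.12 to 0.12, Otc -0.10 to 0.025 and Asl -0.021 to 0.47. Where 1 rat was left out, the lone rat of its strain is assumed to vary like the others. At medians of 1423 to 2606 UMIs per nucleus by zone, Nags was found in at most 9.98% of the nuclei thinned to 1000 UMIs.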
